A study of Mus musculus with 6 samples.

Results

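The mitochondrial genome of the mouse encodes a small set of proteins, all of them subunits of the respiratory chain. The 10 of these genes described here are mt-Nd1, mt-Nd2, mt-Nd4, mt-Nd5 and mt-Nd6, mt-Cytb, mt-Co1, mt-Co2 and mt-Co3, and mt-Atp6. They were chosen by name, from their Ensembl identifiers, and make up 10 of 21955 identifiers with deposited counts. The other 3 mitochondrial protein genes, mt-Nd3, mt-Nd4l and mt-Atp8, are given beside them. The 2 mitochondrial ribosomal RNAs are not analysed here.

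The counts came from poly-A RNA of neutrophils taken from the dura mater, the tough membrane just under the skull, in mice of genotype WT. There were 3 libraries labelled female and 3 labelled male, all made from animals that had gone through a social threat. No unexposed animals are in the series, and the sources used here give no strain, age or number of animals behind a library. No label states that replicates are different animals, so a p-value here reflects library-to-library spread, which could be wholly technical.

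Libraries held 18555944 to 20778410 counts in those labelled female and 17098026 to 18272577 in those labelled male, so the depths of the groups did not overlap. A check of the labels went against the label female. The Y-linked genes Ddx3y, Eif2s3y, Kdm5d and Uty summed to 312.1 to 328.0 CPM (counts scaled to a common library size) in the libraries labelled female and to 306.6 to 317.9 CPM in libraries labelled male. The ranges overlapped, so the groups are named by their labels throughout. Female replicate 3 stood furthest from its own group, with a chi-square per degree of freedom of 13.4 and 16.5 against the other libraries labelled female, where all other pairs within a group gave 4.10 to 8.09. None of 13 neutrophil markers was at 0, and they summed to 62775 to 80114 CPM in libraries labelled female and to 56516 to 62068 CPM in libraries labelled male.

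Mitochondrial DNA is a circle of which both strands are transcribed into long precursor RNAs. Transfer RNAs lie between most of the protein genes, and their excision frees the messengers, which then receive short poly-A tails inside the organelle. The proteins are built into complexes I, III, IV and V beside many subunits that the nucleus encodes, while complex II is wholly nuclear. Neutrophils are known for drawing most of their energy from glycolysis and for holding few mitochondria, whose membrane potential nevertheless bears on their movement and survival.

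The 10 genes took a smaller part of the counts in the libraries labelled female. Their share of all counts was 7.37%, 6.42% and 8.49% in the libraries labelled female, against 13.1%, 10.7% and 12.2% in those labelled male. The highest library labelled female was thus below the lowest labelled male. The mean was 7.43 ± 1.04% under the label female and 11.99 ± 1.23% under the label male (SD, n = 3 each), a difference of -4.56 percentage points. The male share was 1.61 times the female share (two-sided exact permutation p = 0.1; with 3 against 3 no smaller p is possible, so this test cannot reach 0.05). Counting error was small beside this spread, since the 95% Wilson intervals reached at most 0.0155 percentage points to either side, covering counting error only. In bulk RNA, fewer mitochondria-rich cells and less mitochondrial RNA per cell cannot be told apart.

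**Figure D1:**
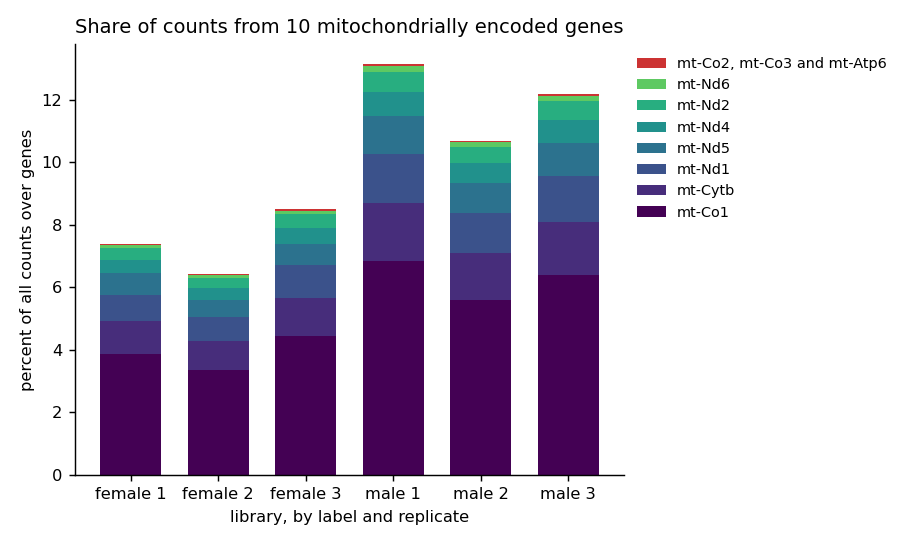
Percent of all counts over genes taken by each mitochondrially encoded gene, stacked for each of 6 libraries, with the libraries labelled female on the left. The 3 bars labelled female end between 6.42% and 8.49% and the 3 labelled male between 10.7% and 13.1%, with mt-Co1 the largest block in every bar.

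All 10 genes passed the filter on low counts. In the libraries labelled female 8 of them fell and 0 rose by edgeR's quasi-likelihood test with adjusted p under 0.05. None was higher at an unadjusted p under 0.05 either, nor by DESeq2 or limma-voom. Over all 11903 genes tested, 6.62% were lower and 7.29% were higher. Those shares depended on the libraries used: without female replicate 3, 1269 genes were lower and 1439 higher, and without male replicate 3, 467 were lower and 439 higher. The median log2 change, female minus male, was -0.71 for the 10 genes and 0.00163 over all genes. Groups did not overlap in 8 of the 10 genes, all of them lower in the libraries labelled female, against 15% of all genes in that direction and 30.9% in either. Markers of other cell types moved with the same groups; their values are given further on.

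Complex I passes electrons from NADH to ubiquinone, and 5 of the genes encode parts of its membrane arm. All 5 fell. The level of mt-Nd5, one of the proton-pumping subunits at the far end of that arm, was 6866, 5184 and 7091 CPM in libraries labelled female and 12479, 9490 and 10893 CPM in libraries labelled male. The groups did not overlap, and the level was 1.72-fold lower (log2 -0.78, SE 0.10, adjusted p = 1.79e-05 by edgeR). mt-Nd4, another proton-pumping subunit, had 4190, 3617 and 5187 CPM in libraries labelled female, against 7967, 6301 and 7346 CPM in those labelled male. Its log2 change was -0.73 (SE 0.10, adjusted p = 3.21e-05 by edgeR).

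mt-Nd1 sits at the ubiquinone-binding end of the arm and was counted at 8226, 7477 and 10695 CPM in libraries labelled female, against 16144, 12344 and 14746 CPM in those labelled male. Its log2 change of -0.71 (SE 0.11, adjusted p = 9.67e-05 by edgeR) was close to that of mt-Nd4. mt-Nd2, a further pumping subunit related to mt-Nd4 and mt-Nd5, had 3698, 3189 and 4554 CPM in libraries labelled female and 6622, 5226 and 6189 CPM in libraries labelled male. It had the smallest change of the 5, at -0.66 on the log2 scale (SE 0.10, adjusted p = 0.000115 by edgeR). In both genes the highest library labelled female, replicate 3, stayed below the lowest labelled male, replicate 2.

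mt-Nd6, a small subunit of the same arm, is the only protein gene read from the opposite strand to all the others. Its level was 996, 958 and 1233 CPM in libraries labelled female and 2006, 1508 and 1782 CPM in libraries labelled male, a 1.66-fold lower level (log2 -0.73, SE 0.09, adjusted p = 1.09e-05 by edgeR). In human cells the ND6 messenger is known to lack a poly-A tail, and the ND5 messenger is known to run on through sequence antisense to ND6. The libraries were made from RNA purified on poly-T beads, no strand-marking step is named, and reads antisense to mt-Nd6 cannot be told from its own. The coding sequences of mt-Nd5 and mt-Nd6 also meet tail to tail, as their last 30 bases in GENCODE M21 on build GRCm38 show; the capitals mark the 14 bases that overlap, which read as each other's reverse complement on the mitochondrial chromosome.
mt-Nd5: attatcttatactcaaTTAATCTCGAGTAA
mt-Nd6: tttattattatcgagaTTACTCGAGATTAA
The counts of mt-Nd6 per 100 counts of mt-Nd5 were 14.5, 18.5 and 17.4 in libraries labelled female and 16.1, 15.9 and 16.4 in libraries labelled male. The groups overlapped in this ratio (exact two-sided permutation p = 0.7, smallest possible 0.1), and the libraries labelled female spread more widely.

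Complex III hands electrons from ubiquinol to cytochrome c, and mt-Cytb, its haem-carrying core, is its one mitochondrial gene. The level of mt-Cytb was 10204, 8801 and 12656 CPM in libraries labelled female, against 19333, 14773 and 17552 CPM in libraries labelled male. It was 1.63-fold lower with no overlap (log2 -0.71, SE 0.11, adjusted p = 9.94e-05 by edgeR). Complex IV, cytochrome c oxidase, reduces oxygen, and mt-Co1 holds the site where this happens. mt-Co1 took more counts than any other gene in every library. It had 37942, 32075 and 45623 CPM in libraries labelled female and 70427, 55178 and 64913 CPM in libraries labelled male, a 1.65-fold lower level (log2 -0.72, SE 0.11, adjusted p = 8.47e-05 by edgeR). Only 2.47% of all genes tested had a log2 change lower than that of mt-Co1.

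The poly-A tail completes the reading frame of some of these messengers. Whether this bears on libraries made from poly-A RNA was not tested. The last 30 coding bases of mt-Cytb end on a lone T, in capitals, which the tail turns into a stop codon, whereas mt-Co1 carries a whole stop codon, also in capitals (GENCODE M21, build GRCm38).
mt-Cytb: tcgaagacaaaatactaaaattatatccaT
mt-Co1: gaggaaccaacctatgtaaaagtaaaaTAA
Of the 10 genes, 3 end in such a partial codon, namely mt-Cytb, mt-Nd4 and mt-Co3. Their log2 changes were -0.71, -0.73 and -0.58, within the range of the genes with a whole stop codon.

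The remaining genes were counted far less often. mt-Co2 carries the copper centre that takes electrons from cytochrome c, and had 119, 121 and 187 CPM in libraries labelled female and 237, 201 and 204 CPM in libraries labelled male. It fell with a log2 change of -0.59 (SE 0.12, adjusted p = 0.0016 by edgeR), and this call was lost by DESeq2 (adjusted p = 0.0719). mt-Co3, the remaining core subunit of complex IV, had 70.5, 42.1 and 234 CPM in libraries labelled female and 133, 129 and 258 CPM in libraries labelled male. Replicate 3 of each label was the high one, the groups overlapped, and the log2 change of -0.58 did not pass (SE 0.36, adjusted p = 0.322 by edgeR). mt-Atp6, which forms the proton channel of ATP synthase (complex V), had 33.0, 35.6 and 65.7 CPM in libraries labelled female and 50.1, 69.2 and 45.9 CPM in libraries labelled male. Its log2 change of -0.30 did not pass (SE 0.18, adjusted p = 0.296 by edgeR). Without female replicate 3, mt-Co3 had a log2 change of -1.62 (adjusted p = 1.59e-09 by edgeR) and mt-Atp6 one of -0.68 (adjusted p = 4.26e-06 by edgeR), so both passed. Both also passed with no filter on low counts. There the log2 changes were almost unchanged, at -0.57 for mt-Co3 and -0.29 for mt-Atp6, and only the SE fell, to 0.07 and 0.08. An SE of 0.07 is small beside the spread of mt-Co3 between libraries of the same label, so neither pass is relied on. Other libraries moved the values the other way, with mt-Co3 at -0.33 without female replicate 1, -0.18 without female replicate 2 and -0.18 without male replicate 3, and mt-Atp6 at -0.12 without female replicate 1, -0.15 without female replicate 2 and -0.10 without male replicate 2 (adjusted p = 0.654 to 0.845 by edgeR).

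Of the mitochondrial genes outside the 10, mt-Nd3, a complex I subunit, had 4.13, 4.64 and 7.84 CPM in libraries labelled female and 11.01, 5.87 and 7.03 CPM in libraries labelled male (log2 -0.52, SE 0.23, adjusted p = 0.151 by edgeR). mt-Nd4l, also of complex I, had 10 to 33 counts in libraries labelled female and 25 to 34 in libraries labelled male (log2 -0.75, SE 0.39, adjusted p = 0.226 by edgeR). With 1 library left out, the log2 change ranged from -0.86 to -0.22 for mt-Nd3 and from -1.35 (without female replicate 1) to -0.42 (without female replicate 2) for mt-Nd4l. mt-Nd3, whose change was smallest without male replicate 1, passed without female replicate 3 and with no filter on low counts. With no filter its log2 change was almost the same, at -0.51, and its SE was lower, at 0.17. mt-Atp8, of complex V, held 2 to 7 counts per library in each group and was too low to test.

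**Figure D2:**
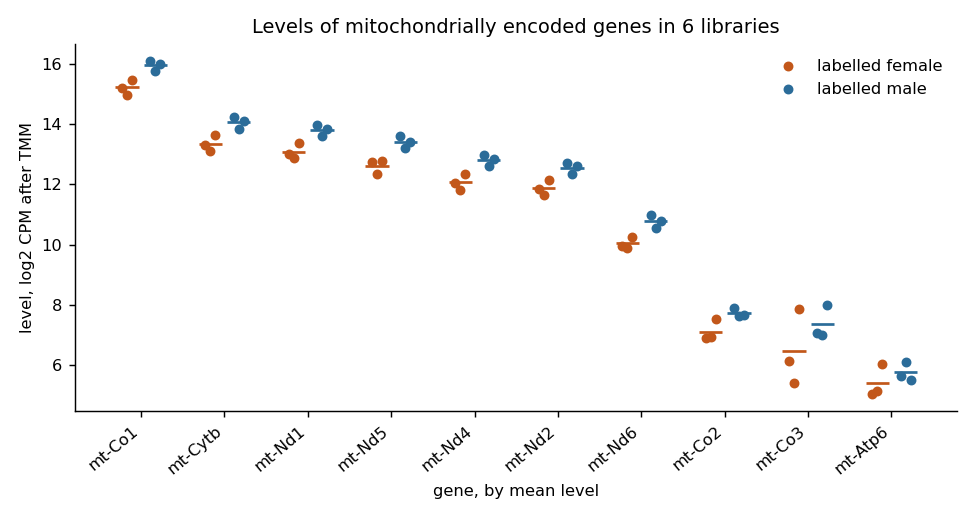
Level of each of the 10 genes as log2 CPM after TMM normalization, with 1 point per library, the libraries labelled female left of those labelled male, and a bar at each group's mean. In 8 genes all 3 points labelled female lie below all 3 labelled male, while in mt-Co3 and mt-Atp6 the groups overlap.

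Levels were compared between genes as CPM per kilobase of coding length. mt-Co1 led, with means of 24949 in libraries labelled female and 41104 in libraries labelled male, and stood above the next gene in 6 of 6 libraries. mt-Cytb and mt-Nd1 followed and could not be ordered, since mt-Cytb was the higher in 3 of 6 libraries. They averaged 9225 and 9195 CPM per kilobase in the libraries labelled female and 15052 and 15059 in libraries labelled male. mt-Nd5 and mt-Nd2 came next and were not separated either (mt-Nd5 higher in 4 of 6), with 3498 and 3674 CPM per kilobase in libraries labelled female and 6006 and 5792 in libraries labelled male. mt-Nd4 and then mt-Nd6 held the same place below these in 6 of 6 libraries. Part of mt-Nd4 has an identical nuclear copy and part of mt-Co1 a nearly identical one, both described below. How reads from these parts were counted is not known. Reads antisense to mt-Nd6 cannot be told from its own, as said above. The places of mt-Nd4, mt-Co1 and mt-Nd6 are therefore ones in deposited counts only. After mt-Nd6, at 2047 in libraries labelled female and 3401 in libraries labelled male, came a drop to mt-Co2, at 208 CPM per kilobase in libraries labelled female and 313 in libraries labelled male. mt-Co2 exceeded mt-Co3 in 4 of 6 libraries, and mt-Atp6 was the lowest of the 10 in every library, with 65.8 in libraries labelled female and 80.9 in libraries labelled male.

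For the 7 abundant genes, the mix within the 10 differed less between libraries than their total did. mt-Co1 supplied 52.2 ± 0.178% of the 10 genes' counts in libraries labelled female and 52.3 ± 0.231% in libraries labelled male (SD, n = 3 each). From the lowest to the highest of the 6 libraries its share of all counts spread 2.04-fold, but its share of the 10 genes' counts only 1.01-fold. mt-Cytb made up 14.3% in libraries labelled female and 14.2% in libraries labelled male, and mt-Nd1 11.9% in each group. mt-Nd5 made up 8.67 ± 0.726% in libraries labelled female and 9.01 ± 0.214% in libraries labelled male, and mt-Nd6 1.45% in each group. mt-Nd4 made up 5.87% in libraries labelled female and 5.93% in libraries labelled male. These 6 genes overlapped between the groups.

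mt-Nd2 was the one gene whose share of the mix did not overlap. It held 5.11%, 5.19% and 5.20% of the 10 genes' counts in libraries labelled female, against 4.89%, 4.97% and 4.99% in libraries labelled male (exact two-sided permutation p = 0.1, and 0.833 after Benjamini-Hochberg adjustment over the 10 genes). With 1 library left out, which leaves fewer values to overlap, the count of such genes was 5 without female replicate 1, 3 without female replicate 3, 2 without female replicate 2, male replicate 1 or male replicate 2, and 1 without male replicate 3. At the other end, mt-Co3 had the least steady share of the mix, with 0.0975%, 0.0685% and 0.268% in libraries labelled female and 0.0984%, 0.122% and 0.208% in libraries labelled male. That is a 3.91-fold spread over the 6 libraries, against 1.03-fold for mt-Cytb. mt-Atp6 followed with a 2.03-fold spread.

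Most of the sparsely counted genes have near-identical copies in the nucleus. Stretches of mitochondrial DNA that have entered the chromosomes are known in many species, and a read from such a stretch can be placed in both genomes. Each coding sequence was cut into all its windows of 100 bases, and these were looked for, unaltered, in GENCODE M21 transcripts of nuclear genes. Of the windows, 99.5% were shared in mt-Co2 and mt-Atp6, 99.9% in mt-Co3, 98.5% in mt-Nd4l and 97.6% in mt-Nd3. The share was 60.8% in mt-Nd4, 30.8% in mt-Co1 and 3.19% in mt-Nd2, and no window was shared in mt-Nd1, mt-Nd5, mt-Nd6, mt-Cytb or mt-Atp8. Thus the 3 lowest of the 10 genes per kilobase were the 3 with nearly all windows shared. mt-Atp8, the least counted of all 13, had no window in an annotated nuclear transcript. Only annotated transcripts were searched, so a copy of mt-Atp8 outside them would be missed.

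The main copy lies on chromosome 1. mt-Co2 aligned there with the pseudogene Gm28661 over 681 of 684 bases with 0 mismatches, mt-Atp6 with Gm10925 over 678 of 681 bases with 0, and mt-Co3 with Gm28437 over 783 of 784 bases with 0. mt-Nd4 aligned with Gm28439 over 876 of 1378 bases with 0 mismatches, and mt-Co1 with Gm29216 over 483 of 1545 bases with 1. The order of the mitochondrial genome was kept: from mt-Co2 to mt-Atp6 the starts lie 914 bases apart on both chromosomes, and from mt-Atp6 to mt-Co3 680 bases. mt-Atp8 lies between mt-Co2 and mt-Atp6 and overlaps mt-Atp6 by 43 bases. The sequence between the copies of mt-Co2 and mt-Atp6 was not searched for it. A further copy of mt-Co2 on chromosome 2, Gm13341, had 16 mismatches in 672 aligned bases. The first 60 bases of the gene and of the copies on the 2 chromosomes (GENCODE M21, build GRCm38, each on its own strand) show how far reads could be told apart; the capitals mark C25T and G57A, counted from the first base of mt-Co2, with the base of mt-Co2 written first and that of Gm13341 last.
mt-Co2: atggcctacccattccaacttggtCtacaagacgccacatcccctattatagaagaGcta
Gm28661: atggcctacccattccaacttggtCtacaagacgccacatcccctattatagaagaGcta
Gm13341: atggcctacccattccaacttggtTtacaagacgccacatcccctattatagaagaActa
In this stretch mt-Co2 and Gm28661 were the same letter for letter. Windows of 50, 100 or 150 bases of the 13 mitochondrial genes were found in 14 nuclear genes, of which 0 have an identifier among the deposited counts.

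The sources used here do not say how reads that fit several places were counted. The part of this in the low counts of mt-Co2, mt-Co3 and mt-Atp6, and in the levels of mt-Nd4 and mt-Co1, was not tested. Shares were also summed over the genes with few or no shared windows, a set added after the data were seen. mt-Nd1, mt-Nd2, mt-Nd5, mt-Nd6 and mt-Cytb together took 3.06%, 2.67% and 3.52% of counts in libraries labelled female, against 5.48%, 4.40% and 5.02% in libraries labelled male (two-sided exact permutation p = 0.1, again the lowest 3 against 3 can give). The male share was again 1.61 times the female share. mt-Co2, mt-Co3 and mt-Atp6 together took 0.0302 ± 0.0148% in libraries labelled female and 0.0437 ± 0.00534% in libraries labelled male (SD, n = 3 each, exact two-sided permutation p = 0.3). For these genes the male share was 1.45 times the female share. The part of nuclear copies in the difference between groups was not tested.

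**Figure D3:**
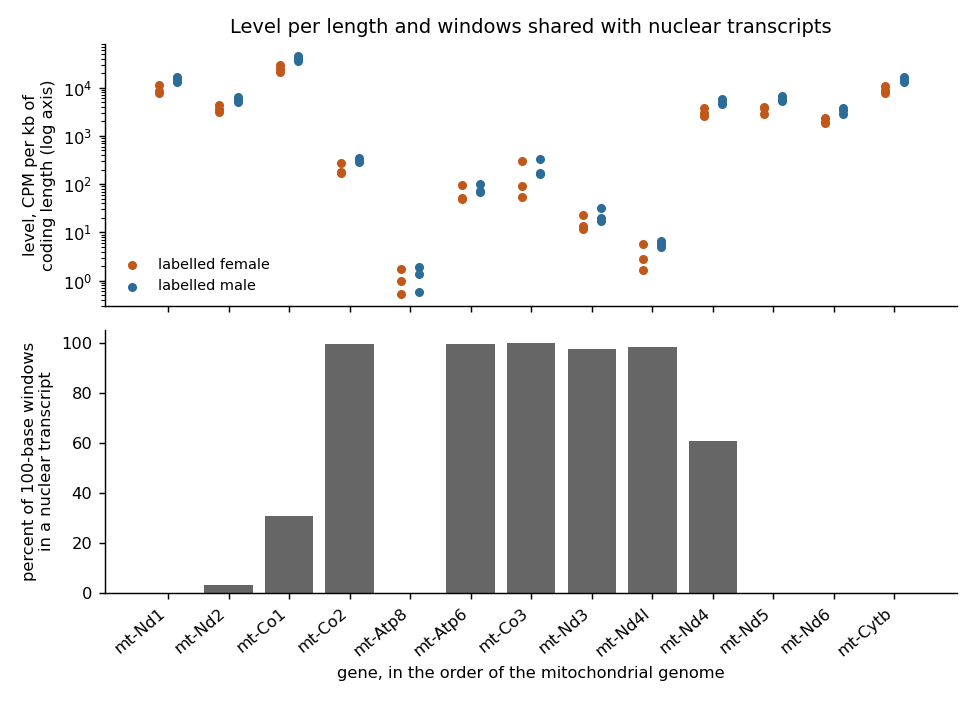
Level of all 13 mitochondrial protein genes as CPM per kilobase of coding length on a log axis (top, 1 point per library, labelled female left of labelled male) above the percent of each gene's 100-base windows found in a nuclear transcript (bottom). mt-Co2, mt-Atp6, mt-Co3, mt-Nd3 and mt-Nd4l have 97.6% to 99.9% of windows shared and low levels. mt-Atp8 has the lowest levels and no window in an annotated nuclear transcript, the only sequences searched.

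Of the subunits that the nucleus adds to the same complexes, few passed. By edgeR, DESeq2 and limma-voom alike, 1 of 80 tested was higher and 0 were lower in the libraries labelled female, against 7.29% higher and 6.62% lower of all genes by edgeR. At an unadjusted p under 0.05, 3 were higher and 4 lower by edgeR. Their median log2 change was 0.00406, with a range of -0.44 to 0.22. Complex I had 36 nuclear subunits with log2 changes of -0.20 to 0.18, which none of its 5 mitochondrial genes reached. Without female replicate 3, the library that stood apart, 11 of the 80 were lower and 2 higher, and the median was -0.08.

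Cox4i1, the largest nuclear subunit of complex IV, had 160, 172 and 206 CPM in libraries labelled female and 185, 184 and 188 CPM in libraries labelled male (log2 -0.05, SE 0.07, adjusted p = 0.739 by edgeR). The groups overlapped, and among libraries labelled female Cox4i1 was highest in replicate 3, as mt-Co1 was. The 1 nuclear subunit that passed was Atp5pb (Atp5f1 in the annotation), part of the stalk of ATP synthase, with a log2 change of 0.22 (SE 0.06, adjusted p = 0.0108 by edgeR). That call was lost without male replicate 2 or male replicate 3 (adjusted p = 0.0657 to 0.0824).

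**Figure D4:**
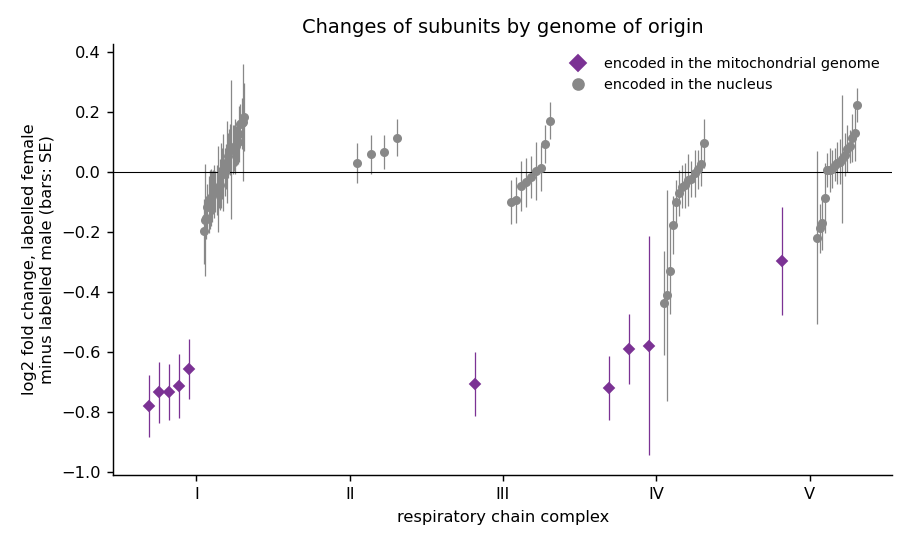
Log2 change of respiratory chain subunits, libraries labelled female minus male, with bars for the SE, by complex and by the genome that encodes them. The mitochondrially encoded subunits of complexes I, III and IV lie at -0.78 to -0.58, mt-Atp6 of complex V at -0.30, and the nuclear subunits between -0.44 and 0.22 around 0.

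Few of the nuclear genes that copy, transcribe and process mitochondrial DNA and RNA passed the test. Of 27 genes for transcription and for upkeep of mitochondrial DNA, 0 passed in either direction by edgeR, DESeq2 or limma-voom, and at an unadjusted p under 0.05 edgeR had 4 higher and 2 lower. Tfam, which packs mitochondrial DNA and starts its transcription, had 33.0, 34.3 and 34.3 CPM in libraries labelled female and 32.5, 35.9 and 35.0 CPM in libraries labelled male (log2 -0.03, SE 0.08, adjusted p = 0.863 by edgeR). Polrmt, the RNA polymerase of the organelle, had a log2 change of -0.10 (SE 0.13, adjusted p = 0.653 by edgeR). In both genes the groups overlapped.

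Of 31 genes for processing, stability and decay of mitochondrial RNA, 2 fell and 0 rose, a share close to the 6.62% lower among all genes. They were Pnpt1, a nuclease that takes part in the decay of mitochondrial RNA, with a log2 change of -0.27 (SE 0.07, adjusted p = 0.00888 by edgeR), and Elac2, which trims the 3′ ends of transfer RNA precursors, with -0.32 (SE 0.09, adjusted p = 0.0241 by edgeR). Pnpt1 had 52.4, 54.0 and 54.6 CPM in libraries labelled female and 65.0, 62.4 and 66.9 CPM in libraries labelled male, without overlap. Its call was lost without male replicate 3 (adjusted p = 0.0626), and that of Elac2 without female replicates 1 or 2 or male replicates 1 or 3 (adjusted p = 0.0614 to 0.118). DESeq2 and limma-voom also called 2 lower and 0 higher, and at an unadjusted p under 0.05 edgeR had 6 lower and 1 higher. Of 17 factors of mitochondrial translation, 0 passed by the 3 tools, with 1 higher and 2 lower at an unadjusted p under 0.05 by edgeR.

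At an unadjusted p under 0.05 by edgeR, 3 of 14 regulators of mitochondrial biogenesis were higher and 1 was lower. By the adjusted p, 2 of the 14 rose and 0 fell, against 7.29% higher and 6.62% lower of all genes. They were Prkaa1, a catalytic subunit of the energy sensor AMPK, and Creb1, a transcription factor that cyclic AMP activates, with log2 changes of 0.26 and 0.23 (adjusted p = 0.0121 and 0.0216 by edgeR). Leaving out 1 library ended the call of Prkaa1 for female replicate 1 and male replicates 2 and 3, and the call of Creb1 for each library but female replicate 3 (adjusted p = 0.0509 to 0.116). Of 21 genes of mitophagy and mitochondrial dynamics, 3 rose and 0 fell, against the same 7.29% and 6.62% of all genes. The 3 were Map1lc3b, which coats autophagosomes, Mff, which brings the fission machinery to mitochondria, and Fundc1, a mitophagy receptor. Their log2 changes were 0.24, 0.24 and 0.28 (adjusted p = 0.02, 0.021 and 0.0303 by edgeR). The count was 0 without male replicate 3, 1 without male replicate 1 or 2, and 2 without female replicate 1 or 2. DESeq2 and limma-voom gave the same counts for both lists.

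Of 20 genes of the mitochondrial stress response, 1 rose and 2 fell, which is close to the 7.29% higher and 6.62% lower among all genes. Hspd1, the chaperonin that folds proteins in the matrix, had 232, 254 and 194 CPM in libraries labelled female and 165, 171 and 168 CPM in libraries labelled male (log2 0.43, SE 0.08, adjusted p = 0.000449 by edgeR). Ddit3, a transcription factor of the integrated stress response, had a log2 change of -0.55 (SE 0.09, adjusted p = 0.000163 by edgeR) and Ddit4, an inhibitor of mTORC1 signalling, one of -0.33 (SE 0.08, adjusted p = 0.00594 by edgeR). Without female replicate 3, 4 genes of this list were higher and 4 lower.

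Among 10 genes that sense mitochondrial DNA or RNA and foreign nucleic acid, 6 fell and 1 rose, against 6.62% and 7.29% of all genes. Ifih1, a receptor for long double-stranded RNA, mitochondrial RNA included, had 40.6, 39.7 and 42.9 CPM in libraries labelled female and 66.5, 63.6 and 69.6 CPM in libraries labelled male (log2 -0.70, SE 0.07, adjusted p = 6.61e-07 by edgeR). Zbp1, which binds left-handed nucleic acid, Dhx58, a relative of Ifih1, and Nlrp3, an inflammasome sensor, changed by -1.03, -0.64 and -0.43 on the log2 scale (adjusted p = 6.52e-09 to 9.94e-05 by edgeR). The 1 gene that rose, Tmem173 (Sting), the adaptor behind cytosolic DNA sensing, was named after its values were seen; its log2 change was 0.23 (adjusted p = 0.0443 by edgeR), and under 7 of 14 alternatives, DESeq2 and leaving out female replicate 2, male replicate 2 or male replicate 3 among them, no gene of the list was higher. Several of these sensors are known to be induced by interferon.

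Markers of several other cell types differed between the same groups. For comparison with the counts below, 7.29% of all genes tested were higher and 6.62% lower. B cell markers summed to 214 to 290 CPM in libraries labelled female and 351 to 422 CPM in libraries labelled male, with 10 of 13 lower and none of the 13 at 0. Dendritic cell markers summed to 767 to 787 CPM in libraries labelled female and 1046 to 1048 CPM in libraries labelled male, with 10 of 15 lower and none at 0. Ms4a1, a B cell surface protein, had a log2 change of -0.79, and Siglech, a receptor of plasmacytoid dendritic cells, one of -0.63 (adjusted p = 2.52e-05 and 7.80e-07 by edgeR). Of 14 T and NK cell markers 1 was lower, close to the share over all genes. Their sums overlapped at 193 to 231 CPM in libraries labelled female and 210 to 244 CPM in libraries labelled male. Of 11 fibroblast and endothelial markers tested 2 were lower and 1 was higher, with sums of 74.3 to 85.5 CPM in libraries labelled female and 90.9 to 96.9 CPM in libraries labelled male and with Col3a1, Lum, Pdgfra and Cldn5 under 1 CPM throughout. Of 15 monocyte and macrophage markers 2 were higher and 1 was lower, with sums of 2384 to 2432 CPM in libraries labelled female and 2154 to 2224 CPM in libraries labelled male. Of 10 erythroid markers 5 were higher, with sums of 272 to 291 CPM in libraries labelled female and 250.3 to 271.9 CPM in libraries labelled male. Most of these sums was Tfrc, at 209 to 220 CPM under the label female and 219 to 240 CPM under the label male. Tfrc went the other way (log2 -0.11, adjusted p = 0.246 by edgeR), whereas the median log2 change of the list was 1.18. The part of all these cell types in the mitochondrial shares was not tested.

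Of 13 neutrophil markers, 8 were higher and 1 lower in libraries labelled female. The shares over all genes, for this list and the next, were 7.29% higher and 6.62% lower. Retnlg, a secreted protein typical of mature neutrophils, had 1814, 1754 and 2143 CPM in libraries labelled female and 788, 743 and 871 CPM in libraries labelled male (log2 1.25, SE 0.08, adjusted p = 7.23e-10 by edgeR). Immediate early and dissociation genes, which handling of tissue also induces, summed to 14507 to 14881 CPM in libraries labelled female and 17129 to 17457 CPM in libraries labelled male, with 17 of 25 lower and 2 higher. Fosb, a subunit of the AP-1 factor, had a log2 change of -0.63 (SE 0.06, adjusted p = 1.04e-07 by edgeR). Depth, the mitochondrial shares and every marker sum given here but that of T and NK cells separated the groups in the same libraries. The erythroid sums did so only narrowly, from 272.3 CPM up under the label female and to 271.9 CPM under the label male. The parts of these measures cannot be told apart.

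The pattern over the 6 libraries was set beside that of all other genes. The mean log2 CPM of the 10 genes was 10.62, 10.41 and 11.15 in libraries labelled female and 11.52, 11.27 and 11.48 in libraries labelled male. Female replicate 3 thus came close to male replicate 2, but each gene weighs the same in this mean. Of the 10 genes only mt-Co3 was higher in that female library than in that male one (7.87 against 7.01 log2 CPM). mt-Co1 was lower, at 15.48 against 15.75 log2 CPM. Each of the 10 genes, being part of this mean, tracked it with a Pearson r of 0.66 for mt-Atp6 to 0.98 for mt-Nd2. Among 8732 other genes with a mean of at least 3 log2 CPM, the closest over the 6 libraries were Kptn (r = 0.998), a regulator of mTORC1, Nfe2l2 (r = 0.997), the transcription factor of the antioxidant response, Clasrp (r = 0.995), Ppfia4 (r = 0.993) and Gtpbp2 (r = 0.992). With so few points, which share library and depth, these are descriptions of these libraries.

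Of these 5 genes, 3 fell and 2 did not pass. Kptn had 11.59, 11.04 and 13.59 CPM in libraries labelled female and 14.7, 13.7 and 14.7 CPM in libraries labelled male, a log2 change of -0.25 that did not pass (SE 0.12, adjusted p = 0.184 by edgeR). Nfe2l2 had a log2 change of -0.16 (SE 0.06, adjusted p = 0.0808 by edgeR). Clasrp, Ppfia4 and Gtpbp2 fell, with log2 changes of -0.30, -0.23 and -0.21 (adjusted p = 0.0167, 0.0495 and 0.0462 by edgeR). Leaving out 1 library ended the call of Clasrp for female replicates 1 and 2 and male replicates 1 and 3, and the calls of Ppfia4 and Gtpbp2 for each library but female replicate 3 (adjusted p = 0.0508 to 0.251 over the 3 genes); Ppfia4 also did not pass by DESeq2 or limma-voom. Once each label group was centred on its own mean, so that only the spread within groups remained, Aldh2, Kptn, Tfe3, Tlr2 and Adipor1 were closest (r = 0.997 to 0.999), and none of these 5 passed the test between groups (adjusted p = 0.0546 to 0.953 by edgeR).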

How the data were processed

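Trizol-extracted RNA was purified on poly-T beads, fragmented, copied from random primers and read on a NovaSeq instrument, per the labels' protocols. Per the submitters' processing notes, cutadapt 1.15, HISAT2 2.0.5 and GRCm39 were used, with no role stated, and the sources used here name no counting tool. What the authors deposited are raw, unscaled counts for 21955 identifiers in each of 6 libraries.

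GENCODE M21 (GRCm38) named 21847 identifiers; as builds differ, no genome coordinates are printed. The test was edgeR's quasi-likelihood test (edgeR 4.0.16, R 4.3.3) after TMM and filterByExpr at a minimum count of 10, with a Benjamini-Hochberg threshold of 0.05 and the label group as the only term. CPM are after TMM, and log2 changes are libraries labelled female minus male. Within each label group all pairs of libraries differed beyond sampling noise, and pairs across the labels were not compared in this way. Shares per library were compared by exact permutation tests, two-sided. Coding lengths and sequences came from GENCODE M21 transcripts, and Biopython 1.88 made the alignments. The fit was tested on simulated counts in which genes of like level shared the same spread and no library stood apart. Those counts do not cover a gene such as mt-Co3 or a library such as female replicate 3.

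Members, lists and tests were chosen with earlier results of these data known. Genes were named by rule: the 10 genes and the other mitochondrial ones; from each list up to 4 called genes with the smallest adjusted p and the most abundant; Tfam and Polrmt; and the 5 closest in pattern. The text gives a part of them. Alternatives were DESeq2 1.42.0, limma-voom (limma 3.58.1), other scaling factors, other filters (none, or 10 CPM in 3 libraries), omission of each library in turn, a block for the replicate number, other denominators and, added after the data were seen, the share over genes with under 10% of windows shared.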

Additional observations from a re-analysis of the deposited data

How the results depend on the processing

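Under all 14 alternatives no mitochondrial gene of the 10 turned its direction, and 0 were higher in each. The number lower was 7 by DESeq2, 9 with the replicate block, 10 with no filter or without female replicate 3, and 8 otherwise. With no filter the calls of mt-Co3 and mt-Atp6 came with a smaller SE and almost unchanged log2 changes. Leaving out 1 library gave 439 to 1439 genes higher and 467 to 1269 lower (868 and 788 with all 6), a share difference of -5.22 to -3.997 percentage points, and 1 to 5 genes whose share of the mix did not overlap. Small changes of Cox4i1 and Tfam reversed: with 1 library left out Cox4i1 ranged from -0.16 to 0.031, reversed without female replicate 1, and Tfam from -0.067 to 0.00407, reversed without male replicate 2, and the cause was not tested. Scaling factors moved the median of all genes to between -0.0124 and 0.0016.

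The replicate numbers were not taken as pairs. Deviations from the group means correlated at -0.0386, 0.0646 and 0.0634 between libraries of the same number, and not every library correlated best with its own number. With the replicate block, 1007 genes were higher and 914 lower, mt-Co3 passed (log2 -0.84, adjusted p = 5.20e-05 by edgeR), and the share difference of -4.56 points had an exact p = 0.25 within pairs, the smallest that 3 pairs allow. With 3 libraries a group, and with depth, labels and marker levels moving together, what sets the shares cannot be told from these counts. Depth limits mt-Atp8 (2 to 7 counts a library) and mt-Nd4l (10 to 34).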
